A study of Mus musculus with 6 samples.

Results

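The 46 genes described here code for the machinery that copies DNA and for the regulators that let a cell pass from G1 into S phase. They were taken by symbol, from a list that covers origin recognition and helicase loading, the MCM helicase, its activators, the polymerases, the clamp and its loader, deoxynucleotide supply, replication-coupled chromatin factors, S-phase cyclins and E2F1. The list was chosen with earlier results of these data known. All 46 symbols were among the 44788 rows of the count table, and all 46 had enough reads to be tested, as did 16581 genes in all. RNA came from endometrium, the lining of the uterus, of outbred ICR mice on day 4 of pregnancy, in 3 libraries with and 3 without a GnRH agonist. Every mouse had adenomyosis, in which endometrial tissue lies within the uterine muscle: tamoxifen at 2.7 μmol/kg was given by mouth on days 2 to 5 after birth, and histology with smooth muscle actin staining decided which uteri were used. After 75 days, mice of the agonist group were injected in the abdomen with the agonist Decapetyl (spelled as in the labels) at 1.5 μg per 100 g of body weight daily from day 3 to day 9 of estrus. Mice of the other group received the solvent. Mating followed 4 weeks later. No mice without tamoxifen were analysed here. The females were offspring of 5 dams, and no label names the mouse or litter behind a library. The p-values here therefore reflect only how far these 6 libraries spread, which may in part be technical.

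Before S phase, the origin recognition complex, Cdc6 and Cdt1 load the MCM2-7 helicase onto DNA. Cyclin E and cyclin A with CDK2 then help start it, with Cdc45 and the GINS complex as partners, and polymerases alpha, delta and epsilon copy the strands behind it. Many of these genes are E2F targets and are transcribed mainly in proliferating cells from late G1 on. In the mouse uterus, estrogen drives division of the epithelium in the first days of pregnancy, and progesterone then shifts division to the stroma as implantation nears.

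The promoter windows below are shown because E2F factors are the known shared regulators of this group. They are the windows with an E2F match that hold no exon of any gene in GENCODE M21. Each line gives the 250 bases before the RefSeq start (GRCm38.p6), 5′ to 3′ on the gene's strand, with matches to an E2F motif in capitals.
Mcm5 (chr8:75109259-75109508, plus strand): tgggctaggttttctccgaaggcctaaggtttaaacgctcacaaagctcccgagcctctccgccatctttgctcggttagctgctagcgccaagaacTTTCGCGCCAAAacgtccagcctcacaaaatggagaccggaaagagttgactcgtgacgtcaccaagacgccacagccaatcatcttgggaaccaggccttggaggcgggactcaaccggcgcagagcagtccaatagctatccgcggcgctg
Mcm6 (chr1:128359706-128359955, minus strand): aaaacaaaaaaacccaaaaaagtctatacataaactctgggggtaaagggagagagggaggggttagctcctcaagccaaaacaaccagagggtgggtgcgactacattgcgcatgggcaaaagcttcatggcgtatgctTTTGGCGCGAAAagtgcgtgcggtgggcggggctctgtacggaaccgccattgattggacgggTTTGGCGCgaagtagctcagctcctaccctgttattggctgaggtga
Pola1 (chrX:93632156-93632405, minus strand): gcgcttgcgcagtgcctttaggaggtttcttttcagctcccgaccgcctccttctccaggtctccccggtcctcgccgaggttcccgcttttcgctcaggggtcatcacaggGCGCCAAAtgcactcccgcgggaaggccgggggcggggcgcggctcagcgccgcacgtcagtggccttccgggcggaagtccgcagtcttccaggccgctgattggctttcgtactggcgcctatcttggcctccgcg
Uhrf1 (chr17:56304063-56304312, plus strand): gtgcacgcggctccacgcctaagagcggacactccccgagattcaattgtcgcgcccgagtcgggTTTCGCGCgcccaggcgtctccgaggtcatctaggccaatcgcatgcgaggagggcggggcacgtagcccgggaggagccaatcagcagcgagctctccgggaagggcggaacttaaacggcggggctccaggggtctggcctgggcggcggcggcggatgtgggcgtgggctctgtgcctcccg

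The E2F motif was searched on both strands as TTTCCCGC, TTTGGCGC, TTTGCCGC or TTTCGCGC, with overlapping matches counted. RefSeq promoters were at hand for 37 of the 46 members, all but Ccna2, Ccne2, Gins1, Gins2, Gins4, Mcm4, Pole, Prim2 and Rfc2. A match was present for 10 of the 37 (27.0%): Cdc6, Dnmt1, Gins3, Mcm5, Mcm6, Mcm7, Orc1, Pola1, Rfc3 and Uhrf1. Over all 32851 promoters of this length 1.86% held one, or 2.16% of genes. In Mcm6 there were 3 matches, starting 110, 106 and 47 bases before the start, of which the first pair overlap. In Mcm5 a pair of matches, 153 and 149 bases before the start, overlap as well. Starts differ between annotations: of the 10 members with a match, the window lay fully outside the GENCODE gene in 3 (Mcm5, Mcm6 and Pola1) and fully inside it in 4 (Cdc6, Dnmt1, Mcm7 and Uhrf1). The printed Uhrf1 window is that of a second RefSeq start, within an intron of the longer GENCODE model. For genes with several starts, a match before any of them was counted. The CCAAT motif, searched on both strands, was in 23 of the 37 (62.2%) against 37.5% of all genes, and TTTGAA, the letters of the cell cycle homology region, in 5 of the 37 (13.5%) against 18.3%. A match is a description of letters and was not tested for binding.

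Library totals were 11720958 to 14104266 counts. Levels are given as CPM, a gene's share of the library's counts on a fixed scale, on library sizes scaled by TMM, a method that centres most genes on no change. A count of 0 would allow up to 3 counts, or 0.204 to 0.276 CPM, and the lowest count of any member in any library was 11. The tissue label was checked by summed markers. Epithelial markers, such as Epcam and Krt8, summed to 8169.9, 13239.8 and 10948 CPM without the agonist and 6906, 5815 and 4523 CPM with it. Stromal markers, of which Col3a1 and Col6a1 had the most counts, summed to 9376, 5479.7 and 6255 CPM without the agonist and 5853, 6879.5 and 5224 CPM with it. Both types were thus present in every library. Of the embryo and trophoblast markers, Pou5f1, Nanog, Cdx2, Prl3d1 and Tpbpa had 0 reads in every library. The other 3 had low counts in both groups. For Elf5 these were 3, 7 and 11 in the no-agonist libraries against 7, 57 and 21 in the agonist libraries, for Eomes 6, 8 and 8 against 1, 17 and 44, and for Gata4 2, 6 and 11 against 8, 1 and 0. Elf5, like the members, was highest in agonist library 2 (log2 fold change 1.72 ± 0.81), and its part in their values was not tested. The oviduct gene Ovgp1 measured 173 CPM in agonist library 1 and at most 14.2 CPM elsewhere. In the members, agonist library 2 and no-agonist library 3 stood apart from the other 4, and values are given with and without them.

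In the comparison of the agonist with no agonist, 45 of the 46 members had a log2 fold change above 0, where 52.2% of all genes tested did. With library totals in place of TMM, 46 of 46 members and 68.7% of all genes did. None passed the test. With edgeR's quasi-likelihood test and a threshold of 0.05 on the Benjamini-Hochberg adjusted p, 0 of 46 members were higher and 0 lower, as were 0 of 16581 genes in either direction (0%), and the members' adjusted p-values ran from 0.527 to 0.987. At an unadjusted p under 0.05, 1 member, Orc6, was higher and 0 were lower, against 4.17% of all genes higher and 5.09% lower, so this share did not exceed the background. DESeq2 likewise called 0 of 46 at its adjusted p, where it called 0.838% of all genes higher and 1.51% lower. The members' median log2 fold change was 0.66 (range -0.026 to 1.28), beside 0.018 for all genes tested, and 42 of 46 lay above the 75th percentile of all genes (0.29). In 14 members the change was smaller than its own standard error, and in 5 it was larger than 2 standard errors.

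**Figure D1:**
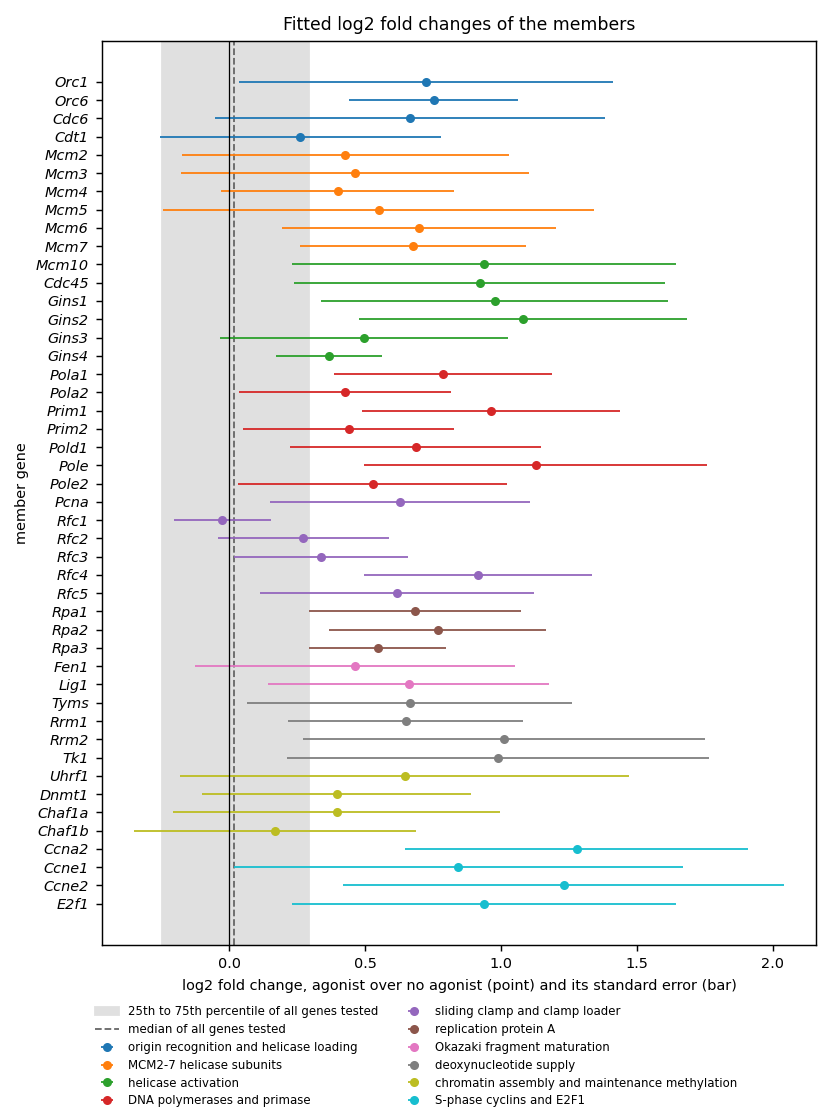
Fitted log2 fold change of each member, agonist over no agonist (x axis; point, with bars of 1 standard error), with members on the y axis coloured by role. The shaded band spans the 25th to 75th percentile of all genes tested (-0.25 to 0.29), and 42 of 46 points lie to the right of it, while the smallest adjusted p is 0.527.

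The higher agonist means rested on a pair of libraries, 1 in each group, and more on agonist library 2 than on no-agonist library 3. Agonist library 2 was the highest of the 6 in all 46 members, where it was the highest in 17.6% of all genes tested. No-agonist library 3 was the lowest in 43 of 46, against 23.4% of all genes; the exceptions were Chaf1b, Rfc1 and Rpa3. Both held at once for 43 members (93.5%) against 8.03% of all genes. Summed over the members, levels were 2056, 1899 and 813 CPM without the agonist and 1683, 4004 and 1414 CPM with it. The mean of the members' centred log2 CPM was 0.18, 0.13 and -1.23 in the no-agonist libraries and -0.024, 1.25 and -0.31 in the agonist libraries. The groups overlapped, and of the 4 other libraries both without the agonist lay above both with it.

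**Figure D2:**
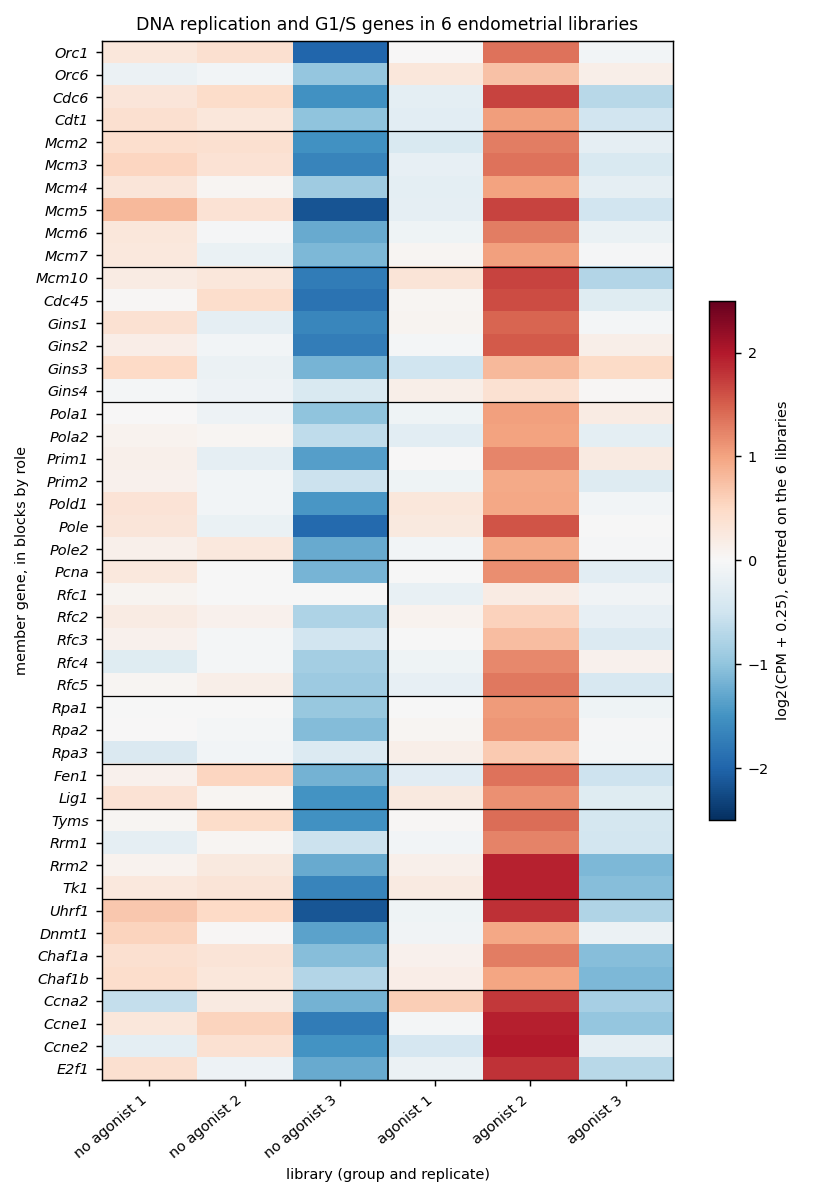
Heat map of log2(CPM + 0.25), centred on the 6 libraries, for each member (y axis, in blocks by role) in each library (x axis; 3 without agonist left of the line, 3 with it on the right). The column of agonist library 2 is the reddest in all 46 rows, and that of no-agonist library 3 is the bluest in 43.

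The groups did not overlap in 3 members, Orc6, Gins4 and Rpa3, each with all agonist libraries above (6.94% of all genes tested did so), and in 0 members did all agonist libraries lie below (7.61% of all genes did). Agonist library 2 exceeded the mean of the other agonist libraries at least 2-fold in 37 of 46 members. In 32 of 46 members, agonist library 3 lay below both no-agonist library 1 and no-agonist library 2. For these counts of 37 and 32 no share over all genes was computed, so they have no background beside them. Without agonist library 2 the members' median log2 fold change was -0.0035, with 23 members above and 23 below 0 (51.0% of all genes were above). Without no-agonist library 3 the median was 0.32, with 43 members above and 3 below 0 (54.6% of all genes were above). The former library was the highest in all 46 members and the latter the lowest in 43, so leaving out either fixed the fall in part. Without both, a choice made after these values were seen and by the members' own level, which fixes the direction in part, it was -0.27, with 37 of 46 members below 0. In that reduced comparison of 2 against 2, 6 members were lower at an unadjusted p under 0.05 (4.42% of all genes were) and 0 at an adjusted one. Both agonist libraries left lay below both others in 24 of the 46 (20.7% of all genes), and above them in 3 (21.4% of all genes).

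**Figure D3:**
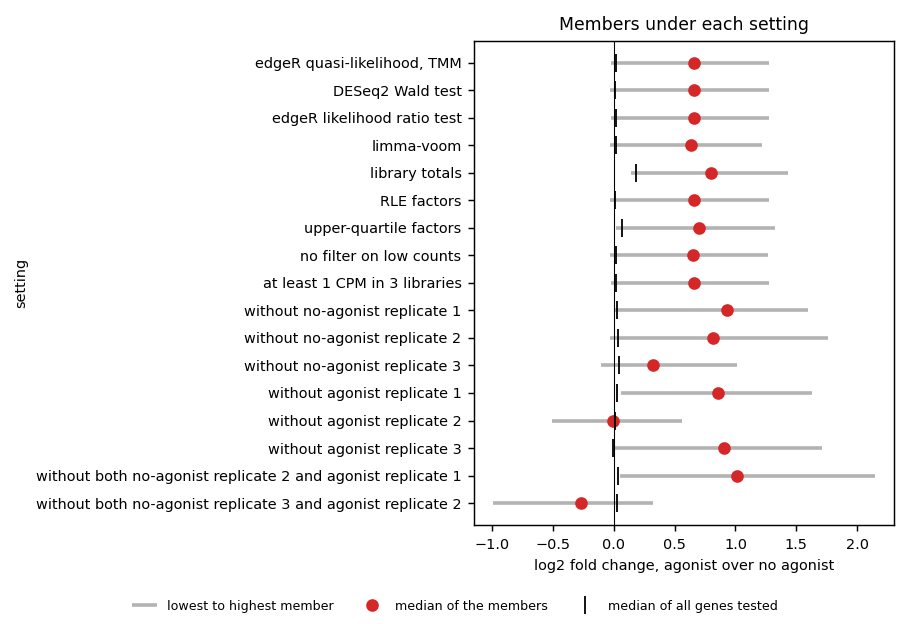
Log2 fold change, agonist over no agonist (x axis), of the members under each setting (y axis): median of the members (red), lowest to highest member (grey) and median of all genes tested (black tick). The median is 0.66 with all 6 libraries, -0.0035 without agonist replicate 2 and -0.27 without it and no-agonist replicate 3. That pair was chosen after the values were seen, which fixes the direction in part. Agonist replicate 2 is the highest in all 46 members, so leaving it out alone also fixes the fall in part.

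Among the factors that recognise origins and load the helicase, Orc6, a subunit of the origin recognition complex (chromosome 8, 85299632 to 85308278, plus strand, GRCm38), measured 17.5, 18.5 and 9.83 CPM without the agonist and 23.7, 32.2 and 21.4 CPM with it. All 3 agonist libraries were above the others. The log2 fold change was 0.75 ± 0.31 (SE), with adjusted p = 0.527 by edgeR's quasi-likelihood test, and the group means were 25.7 ± 5.69 against 15.3 ± 4.76 CPM (agonist against no agonist, mean ± SD, n = 3 each, as below). Of its annotated exon bases 6.93% overlap exons of Vps35 on the opposite strand, and the strand setting of the counting is not given in the sources used here. Orc1, an ATP-binding subunit of the same complex, measured 7.55, 8.27 and 1.38 CPM without the agonist and 6.26, 16.2 and 5.92 CPM with it. Its groups overlapped, and no-agonist library 3 was the only one under 5 CPM. Cdc6, which recruits the helicase to origins, measured 23.7, 26.6 and 6.61 CPM without the agonist and 16.1, 62.4 and 11.8 CPM with it, with agonist library 3 below no-agonist libraries 1 and 2. Fitted log2 fold changes were 0.72 ± 0.69 for Orc1, 0.67 ± 0.72 for Cdc6 and 0.26 ± 0.52 for Cdt1, Cdc6's partner in loading.

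The 6 subunits of the MCM2-7 ring, the replicative helicase, all had positive log2 fold changes, of 0.40 to 0.70. Mcm2, the member with the highest mean CPM, measured 134, 132 and 34.9 CPM without the agonist and 76.3, 243 and 84.7 CPM with it. Mcm6 measured 119.6, 96.8 and 41.1 CPM without the agonist and 91.5, 238 and 87.9 CPM with it. Mcm7 measured 106, 78.7 and 40.7 CPM without the agonist and 92.0, 182 and 86.9 CPM with it. In each of the 3, the agonist libraries 1 and 3 were within or below the range of no-agonist libraries 1 and 2, so agonist library 2 alone stood above every library without the agonist. Mcm5 had the widest spread of the 6, from 15.9 CPM in no-agonist library 3 to 229.6 CPM in agonist library 2, a ratio of 14.5. The group means were 135 ± 93.8 against 100.1 ± 56.5 CPM for Mcm2 and 114 ± 100.3 against 77.8 ± 56.0 CPM for Mcm5. By subunit the log2 fold changes were 0.43 ± 0.60 for Mcm2, 0.46 ± 0.64 for Mcm3, 0.40 ± 0.43 for Mcm4, 0.55 ± 0.79 for Mcm5, 0.70 ± 0.51 for Mcm6 and 0.67 ± 0.41 for Mcm7, with adjusted p-values from 0.678 to 0.888 (edgeR). The ring's subunits work in equal numbers, and their levels per kilobase of annotated exon (mean over 6 libraries) ran from 16.9 CPM for Mcm2 to 28.4 for Mcm3, a narrower range than the spread between libraries.

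Of the genes that turn the loaded ring into an active helicase, Gins4, a GINS subunit, had the smallest p and measured 32.8, 31.1 and 25.8 CPM without the agonist and 37.4, 43.9 and 34.3 CPM with it. All agonist libraries were above the others, yet the whole range over the 6 libraries was 1.70-fold. Gins2, of the same complex, measured 12.7, 10.7 and 3.21 CPM without the agonist and 10.8, 33.0 and 12.5 CPM with it. Over the 4 GINS genes the range was 9.65-fold for Gins1, 10.3-fold for Gins2, 4.17-fold for Gins3 and 1.70-fold for Gins4, with no test of the differences. Most annotated exon bases of Gins2 (67.3%) overlap exons of Gse1 on the opposite strand, and 15 of the 46 members have some such overlap. The log2 fold changes were 0.98 ± 0.64 for Gins1, 1.08 ± 0.60 for Gins2, 0.50 ± 0.53 for Gins3 and 0.37 ± 0.20 for Gins4. They were 0.92 ± 0.68 for Cdc45, the third component of the active helicase, and 0.94 ± 0.71 for Mcm10, which helps activate it.

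All 7 polymerase and primase genes had positive log2 fold changes. Prim1, the catalytic subunit of primase, measured 17.2, 13.5 and 5.88 CPM without the agonist and 15.9, 37.1 and 18.3 CPM with it (log2 fold change 0.96 ± 0.47, adjusted p = 0.595 by edgeR). Pola1, the catalytic subunit of polymerase alpha, measured 14.8, 13.5 and 7.26 CPM without the agonist and 13.8, 30.5 and 17.0 CPM with it (0.79 ± 0.40). In both genes agonist library 1 fell inside the range of the libraries without the agonist. Pola2, the accessory subunit of polymerase alpha and the most abundant of the 7 by CPM, measured 37.1, 35.8 and 22.2 CPM without the agonist and 28.7, 69.5 and 29.4 CPM with it, and agonist libraries 1 and 3 lay between no-agonist library 3 and the other libraries without the agonist. For polymerase epsilon, which copies the leading strand, log2 fold changes were 1.13 ± 0.63 for Pole and 0.53 ± 0.50 for Pole2, its second subunit. They were 0.69 ± 0.46 for Pold1, the catalytic subunit of the lagging-strand polymerase delta, and 0.44 ± 0.39 for Prim2, the large primase subunit.

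The clamp and its loader held the member that varied least. Rfc1, the large subunit of the clamp loader, measured 69.0, 65.6 and 65.1 CPM without the agonist and 58.1, 76.0 and 62.1 CPM with it, a 1.31-fold range, with a log2 fold change of -0.026 ± 0.18, the only one of the 46 below 0. Its sign turned with library totals (0.14) or upper-quartile factors (0.019) in place of TMM. Rfc4 measured 10.3, 12.3 and 6.98 CPM without the agonist and 11.9, 29.9 and 13.8 CPM with it, with the smallest p of this group (0.91 ± 0.42, adjusted p = 0.565 by edgeR). Rfc2, with the highest mean of the group, measured 74.1, 69.4 and 37.6 CPM without the agonist and 67.8, 95.6 and 55.3 CPM with it. In both, agonist library 2 was highest and no-agonist library 3 lowest. Log2 fold changes were 0.27 ± 0.31 for Rfc2, 0.34 ± 0.32 for Rfc3 and 0.62 ± 0.50 for Rfc5.

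Pcna, the sliding clamp that tethers polymerases to DNA, measured 36.8, 30.3 and 13.4 CPM without the agonist and 30.4, 68.7 and 25.3 CPM with it (log2 fold change 0.63 ± 0.48). Reads that match a processed pseudogene as well cannot be told apart by symbol, and Pcna-ps2, whose annotated transcript matches Pcna's over 781 bases at 99.2% identity, held 69.8% of the counts of the pair. Pcna-ps2 measured 75.4, 74.4 and 43.5 CPM without the agonist and 59.4, 164 and 58.9 CPM with it, and the order of the highest and lowest library was that of Pcna. The sum of the pair was 112, 105 and 56.9 CPM without the agonist and 89.8, 233 and 84.2 CPM with it. Its agonist mean was 1.49 times the other, beside 1.54 times for Pcna alone. Gm5487 held 19.0% of the counts of its pair with Mcm7 (97.7% identity), and Gm5648 held 23.1% with Uhrf1 (98.3% identity). With those pseudogenes added, the ratio of group means was 1.61 for Mcm7 (1.60 alone) and 1.58 for Uhrf1 (1.56 alone).

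The 3 subunits of replication protein A, which coats single-stranded DNA, were among the steadier members. Rpa3 measured 17.4, 21.1 and 17.5 CPM without the agonist and 24.9, 35.3 and 21.7 CPM with it, and all agonist libraries were above the others by a small margin (0.55 ± 0.25, adjusted p = 0.565 by edgeR). Rpa2 measured 43.5, 41.9 and 20.2 CPM without the agonist and 44.6, 92.6 and 42.5 CPM with it. Rpa1 measured 84.4, 84.6 and 43.9 CPM without the agonist and 84.1, 179 and 79.1 CPM with it. In Rpa1 and Rpa2 the 4 libraries other than agonist 2 and no-agonist 3 agreed within 1.07-fold and 1.06-fold, so that a single library in each group set their log2 fold changes of 0.68 and 0.77.

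Lig1, the ligase that joins Okazaki fragments, measured 89.4, 71.6 and 24.7 CPM without the agonist and 82.4, 155 and 56.3 CPM with it. Fen1, the nuclease that trims their flaps, measured 50.3, 68.3 and 20.5 CPM without the agonist and 38.3, 121 and 32.7 CPM with it. In both, the agonist libraries other than library 2 lay within or below the range of no-agonist libraries 1 and 2, and log2 fold changes were 0.66 ± 0.52 and 0.46 ± 0.59. Exons of Tmem258 and Gm10143 on the opposite strand overlap 84.2% of the annotated exon bases of Fen1.

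The genes that supply deoxynucleotides had log2 fold changes of 0.65 to 1.01. Rrm1, the large subunit of ribonucleotide reductase, measured 76.9, 92.1 and 61.6 CPM without the agonist and 85.7, 211 and 64.6 CPM with it. Rrm2, the subunit of the same enzyme that is made in S phase, measured 22.1, 24.4 and 8.45 CPM without the agonist and 22.6, 78.8 and 9.39 CPM with it. Agonist library 2 alone stood out in Rrm1, a 3.43-fold range, whereas Rrm2 ranged 9.32-fold, with agonist library 3 close to the lowest library. Log2 fold changes were 0.65 ± 0.43 for Rrm1, 1.01 ± 0.74 for Rrm2, 0.66 ± 0.60 for Tyms, the thymidylate synthase, and 0.99 ± 0.78 for Tk1, the thymidine kinase of S phase.

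Uhrf1, which reads hemimethylated DNA behind the fork and recruits Dnmt1, had the widest spread of all 46. It measured 62.3, 55.1 and 8.63 CPM without the agonist and 36.2, 138 and 22.9 CPM with it, a 16.0-fold range, with a log2 fold change of 0.65 ± 0.83. Dnmt1, the maintenance DNA methyltransferase, measured 123, 84.8 and 33.1 CPM without the agonist and 78.9, 163 and 75.5 CPM with it (0.39 ± 0.49). In both, agonist libraries 1 and 3 were below no-agonist libraries 1 and 2. Of the chromatin assembly factor subunits, Chaf1a had a log2 fold change of 0.40 ± 0.60 and Chaf1b of 0.17 ± 0.52, and in Chaf1b agonist library 3 (19.3 CPM) was the lowest of the 6. Exons of Ubxn6 on the opposite strand overlap 52.5% of the annotated exon bases of Chaf1a.

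The S-phase cyclins and E2f1 had the highest median log2 fold change of the 10 roles, 1.08. Ccna2, cyclin A2, measured 20.0, 35.8 and 13.2 CPM without the agonist and 46.9, 104 and 17.1 CPM with it. Its group means were 55.8 ± 43.9 against 23.0 ± 11.6 CPM, 2.43-fold apart, with overlapping libraries (log2 fold change 1.28 ± 0.63, adjusted p = 0.594 by edgeR). Ccne2, a cyclin E and the least abundant member, measured 2.72, 4.35 and 1.01 CPM without the agonist and 2.41, 13.8 and 2.77 CPM with it (1.23 ± 0.81). Agonist library 2 was the only library above 5 CPM for Ccne2, and in both cyclins agonist library 3 lay inside the range of the libraries without the agonist. Log2 fold changes were 0.84 ± 0.83 for Ccne1, the other cyclin E, and 0.94 ± 0.71 for E2f1, the activator of S-phase genes.

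**Figure D4:**
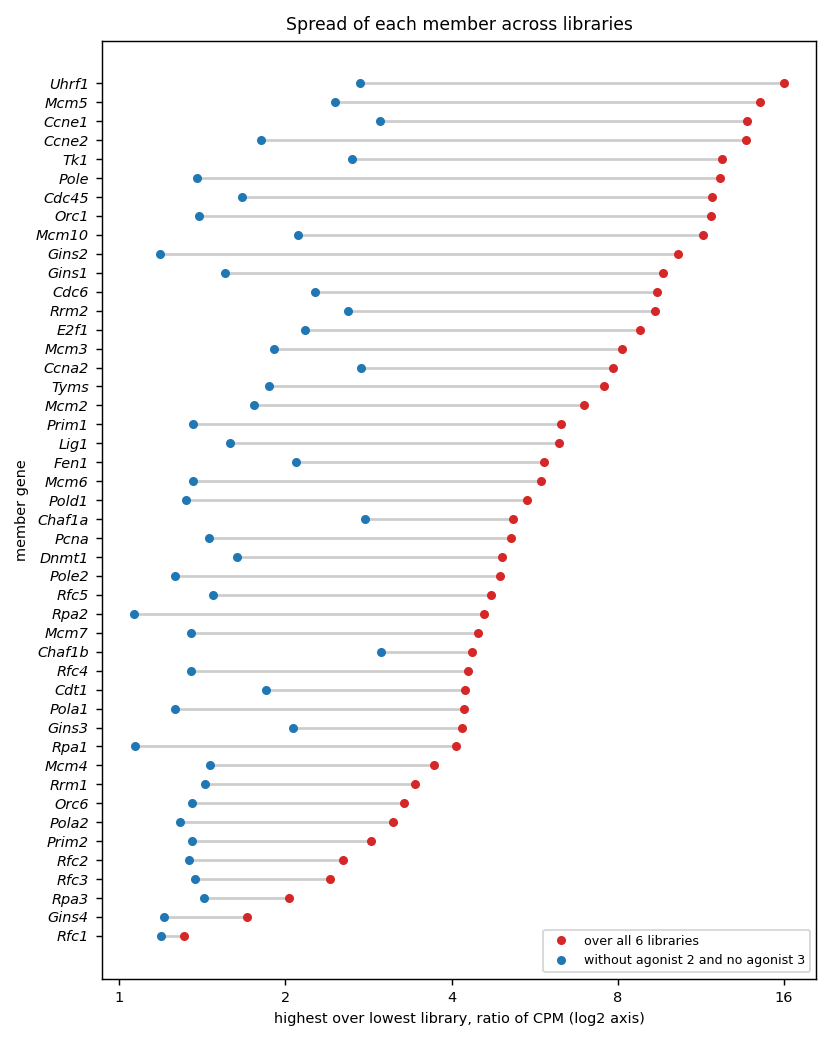
Ratio of the highest to the lowest library's CPM for each member (x axis, log2 scale; members on the y axis in order of the ratio), over all 6 libraries (red) and over the 4 left without agonist library 2 and no-agonist library 3 (blue). The median ratio is 5.33 over 6 libraries and 1.47 over the 4, and Uhrf1 (16.0) and Rfc1 (1.31) mark the ends. The pair left out was chosen by the members' own levels, so the smaller ratio over the 4 follows in part from that choice.

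Members thus ranged from steady to widely varying. The ratio of the highest to the lowest library was 10 or more in 10 members, among them Uhrf1, Mcm5, Ccne1, Ccne2, Tk1 and Pole, and under 2 in Gins4 and Rfc1. Its median was 5.33 over the members, beside 2.04 over the 15964 tested genes that averaged 1 CPM or more and had reads in every library. By role the median ratio was highest in the cyclins and E2F1 (11.2) and the helicase activators (9.96), and lowest in the clamp and its loader (3.41) and replication protein A (4.07). Members with an E2F match in the promoter window had a median ratio of 5.36 (10 genes), and those with a promoter but no match 5.17 (27 genes). Per kilobase of annotated exon, mean levels ran from 1.29 CPM for Ccne2 to 28.4 for Mcm3. Below Mcm3 came Gins4 (25.4), Mcm6 (24.1) and Mcm5 (24.0), which do not differ beyond their spread across libraries.

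Other genes of the pathway, from lists chosen with earlier results of these data known, did not pass the test either. Of 97 tested, 88 had a positive and 9 a negative log2 fold change, where 52.2% of all genes were positive. At an unadjusted p under 0.05, 7 were higher with the agonist and 0 lower, against 4.17% of all genes higher and 5.09% lower. At an adjusted p under 0.05, 0 of the 97 were called (edgeR). Their median was 0.62. Among 27 further replication factors (median 0.36), 24 were positive with all 6 libraries and 10 without agonist library 2 and no-agonist library 3 (median -0.10). Agonist library 2 was highest and no-agonist library 3 lowest in 17 of the 27 (63%), against 8.03% of all genes. The drop to 10 was thus fixed in part by the choice of the pair. Atad5, which helps unload the clamp, measured 5.51, 4.96 and 3.58 CPM without the agonist and 8.83, 15.8 and 6.39 CPM with it (1.14 ± 0.42), and Rnaseh2b, a subunit of ribonuclease H2, averaged 20.9 ± 5.74 against 12.6 ± 1.75 CPM (0.72 ± 0.28). Both had all agonist libraries above the others. The next smallest p-values in that list belonged to Dbf4, the activator of the Cdc7 kinase (0.79 ± 0.43), and Rnaseh2a (0.42 ± 0.24). Gmnn, the inhibitor of Cdt1, measured 10.3, 10.1 and 4.22 CPM without the agonist and 12.0, 26.1 and 6.46 CPM with it (0.85 ± 0.56), with agonist library 2 highest and no-agonist library 3 lowest as in the members. In its list of 8, 7 were positive, among them Shmt1 (0.75 ± 0.42), Dtymk (0.51 ± 0.30), Dck (0.97 ± 0.58) and Rrm2b (0.51 ± 0.33), enzymes of nucleotide supply.

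The D-type cyclins, which act with CDK4 and CDK6 at the start of G1 exit, gave mixed values. Ccnd1 measured 277, 331 and 133 CPM without the agonist and 165, 182 and 173 CPM with it (-0.51 ± 0.33). Ccnd3 measured 113, 130.2 and 118 CPM without the agonist and 103, 115 and 76.0 CPM with it (-0.30 ± 0.21). Ccnd2 measured 63.5, 106 and 23.1 CPM without the agonist and 61.1, 97.3 and 86.2 CPM with it (0.35 ± 0.48). Agonist library 2 was the highest of the 6 in none of these 3, and no-agonist library 3 was the lowest in Ccnd1 and Ccnd2, as in most members. In the same list of 9, log2 fold changes were 0.85 ± 0.46 for Skp2, a ubiquitin ligase subunit, and 0.35 ± 0.29 for Cdk4. Of the E2F and DP partners, 8 of 9 were positive with all 6 libraries and 4 of 9 without the pair of libraries that stood apart. In 5 of the 9 (55.6%) agonist library 2 was highest and no-agonist library 3 lowest, so this drop was fixed in part. Tfdp2, a DP partner of E2F, had all agonist libraries above the others at 22.4, 14.1 and 20.6 CPM without the agonist and 30.2, 25.9 and 43.2 CPM with it (0.80 ± 0.28, adjusted p = 0.450 by edgeR). The others with the smallest p were E2f7 (1.36 ± 0.67), E2f5 (0.35 ± 0.23) and E2f3 (0.40 ± 0.36).

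Among CDK inhibitors and pocket proteins, 8 of 10 were positive (median 0.27, and 0.32 without that pair), and 2 were higher at an unadjusted p under 0.05 (4.17% of all genes were). These were Cdkn2c, the inhibitor p18 of CDK4 and CDK6, at 12.8, 14.5 and 15.2 CPM without the agonist and 21.9, 35.7 and 17.3 CPM with it (0.82 ± 0.31), and Rbl2, the pocket protein p130, at 36.8, 31.2 and 41.8 CPM without the agonist and 45.8, 48.0 and 66.6 CPM with it (0.55 ± 0.22). Cdkn1a, the inhibitor p21, measured 42.4, 45.5 and 100.2 CPM without the agonist and 53.1, 37.3 and 24.2 CPM with it (-0.71 ± 0.41). No-agonist library 3, the lowest for most members, was the highest for Cdkn1a. The group means of Cdkn1b, p27, were 43.8 ± 10.2 against 42.9 ± 11.7 CPM, and those of Cdkn1c, p57, 16.6 ± 6.12 against 9.95 ± 5.57 CPM. The 14 S-phase chromatin and repair genes were all positive (median 0.88), with the smallest p for Msh6 (0.52 ± 0.24), Brca2 (0.82 ± 0.44), Rad51ap1 (1.27 ± 0.69) and Brca1 (1.39 ± 0.76), and none at an unadjusted p under 0.05. Without the same pair of libraries, 5 of the 14 were positive (median -0.022). In 12 of the 14 (85.7%) agonist library 2 was highest and no-agonist library 3 lowest, so this drop too was fixed in part.

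Mitosis genes ordered the libraries partly in another way. All 20 had positive log2 fold changes (median 1.16), with Bub1b (1.51 ± 0.59) and Nusap1 (1.39 ± 0.55) at an unadjusted p under 0.05 and Cenpf (1.15 ± 0.50) and Ccnb1 (1.56 ± 0.71) next. Of all genes, 4.17% were higher at that threshold. Without agonist library 2 all 20 were still above 0, at a median of 0.45, and without it and no-agonist library 3 there were 11 (median 0.10). In 18 of the 20 (90%) agonist library 2 was highest and no-agonist library 3 lowest, so the drop to 11 was fixed in part. Mki67, the antigen Ki-67 of cycling cells, measured 23.8, 67.1 and 15.6 CPM without the agonist and 72.0, 131 and 41.3 CPM with it (1.20 ± 0.60, adjusted p = 0.601 by edgeR). The mean centred log2 level of the 20 was -0.50, 0.34 and -1.43 in the no-agonist libraries and 0.58, 1.62 and -0.62 in the agonist libraries. All 20 were higher in agonist library 1 than in no-agonist library 1, whereas 10 of the 46 replication and G1/S genes were. The replicate numbers do not pair these libraries, and the share over all genes was not computed. Against no-agonist library 2 it did not hold for all 20, with Top2a at 132 CPM there and 123 CPM in agonist library 1. For the MCM2-7 genes the levels were 0.43, 0.16 and -1.43 in the no-agonist libraries and -0.18, 1.27 and -0.25 in the agonist libraries. Whether this difference between the lists exceeds replicate error was not tested.

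**Figure D5:**
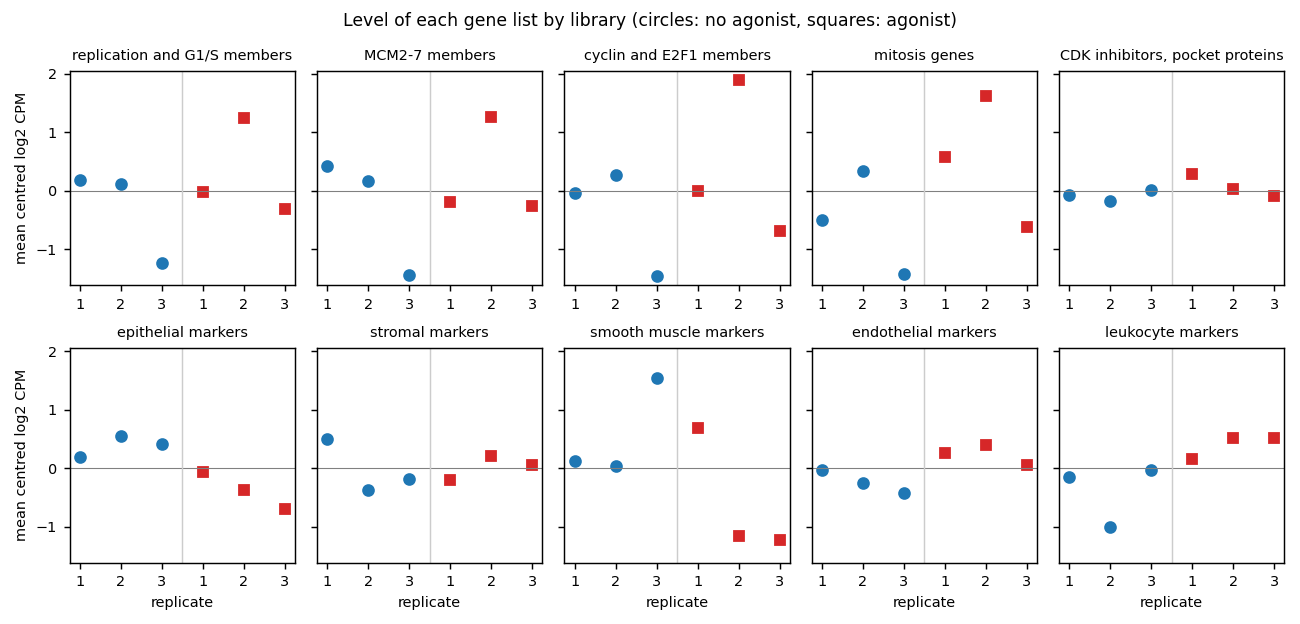
Mean centred log2 CPM (y axis, centred on the 6 libraries) of the members, of selected roles and of other gene lists, by replicate (x axis; blue circles, no agonist; red squares, agonist). Agonist replicate 2 (1.25) and no-agonist replicate 3 (-1.23) are the extremes of the members, while smooth muscle markers are highest in no-agonist replicate 3 (1.54).

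Markers of other cell types varied between the same libraries. Smooth muscle markers summed to 8103, 7643 and 19462 CPM without the agonist and 11931, 2968 and 3625 CPM with it. The mean level of 8 smooth muscle markers was 0.12, 0.040 and 1.54 in the no-agonist libraries and 0.69, -1.16 and -1.23 in the agonist libraries, so no-agonist library 3, with the lowest replication gene level, had the highest muscle level. Agonist libraries 2 and 3 both had low muscle levels, beside replication gene levels of 1.25 and -0.31. The muscle markers' log2 fold changes were below 0 in 8 of 8 (median -0.92), with 0 at an unadjusted p under 0.05. Without agonist library 2 and no-agonist library 3, 4 of 8 were below 0. No-agonist library 3 was the highest for all 8, so leaving out this pair fixed that count in part. All 10 epithelial markers lay below 0, also without this pair. With library totals, without no-agonist library 2, and without it and agonist library 1, 9 of 10 did. Of the 10, 6 were lower at an unadjusted p under 0.05 (5.09% of all genes were) and 0 at an adjusted one. Their levels were 0.20, 0.56 and 0.41 in the no-agonist libraries and -0.074, -0.38 and -0.71 in the agonist libraries. Stromal markers were 6 positive and 5 negative (7 and 4 with library totals), with levels of 0.49, -0.38 and -0.18 in the no-agonist libraries and -0.20, 0.21 and 0.054 in the agonist libraries. Endothelial markers were positive in 8 of 8, with levels of -0.025, -0.26 and -0.42 in the no-agonist libraries and 0.26, 0.40 and 0.054 in the agonist libraries. Without agonist library 2, and without it and no-agonist library 3, 7 of 8 were positive. Of 12 leukocyte markers tested, 9 were positive (10 with library totals), with levels of -0.14, -1.01 and -0.039 in the no-agonist libraries and 0.16, 0.52 and 0.51 in the agonist libraries. Red blood cell markers, mainly globins, had levels of 0.37, 1.07 and -2.54 in the no-agonist libraries and -0.42, -0.34 and 1.85 in the agonist libraries, the widest swing of these lists, and summed to 674, 1047 and 120.1 CPM without the agonist and 346, 396 and 1883 CPM with it. Like the members they were lowest in no-agonist library 3, while agonist library 3 was highest. Of the 5 tested, 5 were positive with all libraries, and 0 had an unadjusted p under 0.05. Without agonist library 3, the highest for all 5, 0 were positive, a fall that this choice fixed in part. Without no-agonist library 3, the lowest for all 5, 4 were positive. The part of these cell types in the members' values was not tested, and fewer dividing cells cannot be told apart from less of these messages per cell in bulk tissue.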

How the data were processed

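The authors' deposited table holds whole-number read counts per gene symbol for 6 libraries. Per the labels' protocols, total RNA with an integrity number above 8.0 was made into single-end Ion Proton libraries. Per the submitters' processing notes, the build was mm10 (GRCm38) and reads were counted with HTSeq 0.6.1; no source used here gives the aligner, annotation, strand setting or filters. Counts were compared with R 4.3.3 and edgeR 4.0.16 (filterByExpr, TMM factors, quasi-likelihood F-test, no covariates, Benjamini-Hochberg adjustment over 16581 genes). Standard errors are the log2 fold change over the root of F. DESeq2 1.42.0, limma 3.58.1 (voom), other scalings and filters, and fits without libraries were alternatives. List levels are means of log2 CPM (prior count 2).

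Exon lengths, positions and overlaps came from GENCODE M21 (GRCm38), by exact symbol. Pseudogenes were its transcripts aligned to a member's over at least 200 bases at 90% identity or more. Promoters came from RefSeq (GRCm38.p6). All members are given by value. Per-library CPM is given for those with an unadjusted p under 0.05, the 2 smallest p-values and the highest mean in each role; of each other list, up to 4 genes with the smallest p are named, plus Gmnn, D-type cyclins, Cdkn1a, Cdkn1b, Cdkn1c and Mki67. The members and lists were chosen with earlier results of these data known.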

Additional observations from a re-analysis of the deposited data

How the results depend on the processing

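No paired analysis was possible because the labels number the libraries of the groups differently and name no shared animal, litter or day. The count of members past an adjusted p of 0.05 was 0 in both directions under all 16 alternatives. The count of genes past it, 0 here, was 390 with DESeq2 (139 higher, 251 lower), 268 with edgeR's likelihood ratio test, 36 without a filter on low counts, and 0 to 7 when libraries were left out. Members higher at an unadjusted p under 0.05, 1 here, numbered 3 with DESeq2 (beside 796 of 16581 genes), 2 with the likelihood ratio test (4.46% of all genes), 5 with library totals (7.19%), 2 with upper-quartile factors (4.98%), 4 without the filter (3.75%), and 0 to 3 with libraries left out (3.10 to 5.21%). Members lower numbered 0 to 6 with libraries left out (3.14 to 7.05% of all genes). Members with all agonist libraries above the others, 3 here, were 6 with library totals (12.3% of all genes) and 3 to 10 with libraries left out (10.3 to 21.6%, and 13.1% where there were 10), and those below were 0 to 24 (10.1 to 20.7%). The median log2 fold change of the members was 0.63 to 0.80 over tests, scalings and filters. It was -0.27 to 1.01 with libraries left out, the higher end without no-agonist library 2 and agonist library 1, which had the most counts of the 18S ribosomal RNA gene. The -0.27, the 6 lower members and the 24 below came from the fit without agonist library 2 and no-agonist library 3. That pair was chosen after the values were seen. Library totals moved the median of all genes from 0.018 to 0.18, and the members' to 0.80. Rfc1 (-0.026 here) was 0.14 with library totals and 0.019 with upper-quartile factors.

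With libraries left out, 37 of 46 members changed sign in at least 1 fit and 9 (Orc6, Gins4, Pola1, Prim1, Pole, Rfc4, Rpa2, Rpa3 and Ccna2) in none. The share of all genes that changed sign was not computed. In the fit without agonist library 2 and no-agonist library 3, 36 changed sign. That pair was chosen after the values were seen and by the members' own level, which fixes the direction in part. Without agonist library 2 alone 22 changed sign, and without no-agonist library 3 alone 2 did. Agonist library 2 was the highest in every member, so the 22 were fixed in part as well. The lowest and highest log2 fold changes among loading factors and the MCM ring were -0.37 to 1.31 for Orc1, -0.85 to 1.30 for Cdc6, -0.71 to 0.63 for Cdt1, -0.72 to 0.97 for Mcm2, -0.74 to 0.93 for Mcm3, -0.42 to 0.70 for Mcm4, -0.95 to 1.07 for Mcm5, -0.27 to 1.03 for Mcm6 and -0.046 to 1.01 for Mcm7. Among activators and polymerases they were -0.37 to 1.43 for Mcm10, -0.36 to 1.63 for Cdc45, -0.10 to 1.50 for Gins1, -0.0030 to 1.52 for Gins2, -0.14 to 0.96 for Gins3, -0.32 to 0.75 for Pola2, -0.23 to 0.67 for Prim2, -0.025 to 1.07 for Pold1 and -0.24 to 0.98 for Pole2. Among clamp, coating and Okazaki factors they were -0.27 to 0.92 for Pcna, -0.16 to 0.063 for Rfc1, -0.22 to 0.44 for Rfc2, -0.21 to 0.56 for Rfc3, -0.41 to 1.06 for Rfc5, -0.048 to 1.02 for Rpa1, -0.74 to 1.13 for Fen1 and -0.21 to 1.02 for Lig1. Among the remaining roles they were -0.46 to 1.29 for Tyms, -0.17 to 1.00 for Rrm1, -0.54 to 1.54 for Rrm2, -0.57 to 1.52 for Tk1, -0.99 to 1.19 for Uhrf1, -0.43 to 0.84 for Dnmt1, -0.72 to 0.80 for Chaf1a, -0.71 to 0.56 for Chaf1b, -0.88 to 1.56 for Ccne1, -0.44 to 2.15 for Ccne2 and -0.56 to 1.36 for E2f1. The lowest count was 11, for Ccne2 in no-agonist library 3, and counting error is greatest for such low values; fits at other depths were not run.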
